A study of Mus musculus with 20 samples.

Results

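The 10 genes described here encode enzymes that add or remove methyl groups at lysine 4 and lysine 27 of histone H3, or partners of those enzymes, and they were taken out of 21951 protein-coding genes of the mouse annotation. They are Kmt2a, Kmt2b, Kmt2c, Kmt2d, Setd1a and Setd1b, the H3K4 methyltransferases of the COMPASS family; Ezh1 and Ezh2, the H3K27 methyltransferases of Polycomb repressive complex 2; Kdm6b, an H3K27 demethylase; and Asxl1, which is not an enzyme itself. Every peak that overlapped a gene body or the 20 kb on either side of it was counted to that gene, so that the 10 windows together spanned 0.988 Mb. The rule that names them uses their function and no measured value.

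The COMPASS enzymes divide the work on H3K4. Setd1a and Setd1b place most of the trimethylation at active promoters, Kmt2a and Kmt2b act at subsets of promoters that include developmental genes, and Kmt2c and Kmt2d monomethylate H3K4 at enhancers. Ezh2 and its paralogue Ezh1 deposit the repressive H3K27 methylation, Kdm6b (JMJD3) takes it off and is induced by inflammatory signals, and Asxl1 supports the deubiquitinase Bap1 and has been linked to Polycomb repressive complex 2. Kmt2a is rearranged in acute leukemia, and EZH2 and ASXL1 are recurrently mutated in myelodysplastic syndrome. H3K27 can be acetylated or methylated but not both at once, and p300, encoded by Ep300, is one of the main acetyltransferases of this residue.

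Chromatin of lineage-negative (Lin-) bone marrow cells was immunoprecipitated for H3K27ac, H3K4me1 or H3K4me3 in mice of 4 genotypes, all on a C57BL/6 background and of both sexes. WT mice carried 2 floxed Ep300 alleles and no Cre, Ep300Δ/Δ mice carried Mx1-Cre with the floxed alleles, Tet2-/- mice carried the floxed alleles without Cre on a Tet2-null background, and Ep300Δ/ΔTet2-/- mice carried Mx1-Cre, the floxed alleles and the Tet2-null background. All of them, the WT mice included, had received poly(I:C) as young adults, which switches on the interferon-responsive Mx1 promoter in blood cells and in other tissues that respond to interferon. Each genotype and mark was 1 library, so 12 peak lists were read, none of the comparisons below has a replicate check, and no test between genotypes was made.

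A list held between 18327 and 29659 peaks for H3K27ac, 90738 to 107392 for H3K4me1 and 25012 to 27807 for H3K4me3, and the Ep300Δ/ΔTet2-/- list was the shortest of the H3K27ac lists. The read depth behind the lists is unknown from these files. The labelled cell population was checked with promoter peaks. All 8 progenitor genes looked at (Kit, Cd34, Flt3, Gata2, Myb, Mpo, Elane and Cebpa) carried H3K4me3 in all 4 genotypes, whereas of 7 genes of mature cells (Cd3e, Cd5, Ms4a1, Cd8a, Cd4, Ly6g and Adgre1) 6 carried it in no list, the exception being Adgre1 with the mark in all 4. Promoter H3K4me1 was called in no list at 3 of the 7, whereas Cd5 had it in all 4 lists, Ly6g and Adgre1 in 3 and Ms4a1 in 2, and Cd5 had H3K27ac in 3 lists. The progenitor genes with promoter H3K27ac numbered 8 in WT, 8 in Ep300Δ/Δ, 6 in Tet2-/- and 5 in Ep300Δ/ΔTet2-/- cells, and the part of a shift in cell types in the results below was not tested.

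Sequences at enhancers that were lost or kept, and next to a promoter region that was lost, are shown first, read from mm10 (GRCm38.p6). The Ezh1 promoter is shown because Ezh1 is the single one of the 10 genes whose H3K27ac call within 3 kb of a start was not the same in all 4 lists. This promoter is given as the 200 bases before the annotated 5′ end of the gene, chr11:101226464-101226663, on the minus strand, which is the strand of Ezh1. The H3K27ac peaks of this promoter lay downstream of the 5′ end, inside the gene, and did not overlap these bases.
Ezh1 promoter: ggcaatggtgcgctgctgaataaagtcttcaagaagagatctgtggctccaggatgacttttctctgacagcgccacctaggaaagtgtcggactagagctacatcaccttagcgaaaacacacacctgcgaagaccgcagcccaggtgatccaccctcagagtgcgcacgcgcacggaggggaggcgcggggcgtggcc
This stretch held 13 CpG dinucleotides, against a median of 7 in the 200 bases before all 21938 coding genes on the assembled chromosomes, which put it at the 69.5th percentile.

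The next 2 windows are centred on the summit of the H3K27ac peak of an active enhancer that was called in Tet2-/- cells and was not called in Ep300Δ/ΔTet2-/- cells. Active enhancers were defined by an H3K27ac peak and an H3K4me1 peak that overlapped in one genotype, more than 3 kb away from any annotated start. H3K4me3 was not part of the definition, and it was called in all 4 genotypes at the H3K27ac regions of both these windows. Both windows are on the plus strand, at chr5:123150961-123151061 in an intron of Setd1b and at chr11:69419416-69419516 upstream of Kdm6b and outside coding genes. Their peaks were weak, at the 1.23rd (Setd1b) and 9.32nd (Kdm6b) percentile of the Tet2-/- list by fold.
Setd1b intronic enhancer: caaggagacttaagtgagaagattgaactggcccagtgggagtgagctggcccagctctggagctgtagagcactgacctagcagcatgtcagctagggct
Kdm6b upstream enhancer: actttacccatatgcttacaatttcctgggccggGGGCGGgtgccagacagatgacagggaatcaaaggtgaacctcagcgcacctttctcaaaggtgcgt
The windows below are, for Setd1b and for Kdm6b, the active enhancer with the highest fold in Tet2-/- cells among those of the gene's window that were active enhancers in all 4 genotypes, at chr5:123128852-123128952 in an intron of Rhof, within 20 kb of Setd1b, and at chr11:69418560-69418660 upstream of Kdm6b, less than 1 kb from the Kdm6b window above. Their peaks ranked at the 78.7th (Setd1b) and 39.2nd (Kdm6b) percentile, so kept and lost windows also differ in peak strength. H3K4me3 was called in all 4 genotypes at the H3K27ac region of this Kdm6b window. A merged H3K4me3 region, chr5:123128402-123129430, spans the Setd1b flanking window.
Setd1b flanking enhancer: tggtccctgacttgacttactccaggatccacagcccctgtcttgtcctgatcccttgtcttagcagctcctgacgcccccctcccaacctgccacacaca
Kdm6b kept enhancer: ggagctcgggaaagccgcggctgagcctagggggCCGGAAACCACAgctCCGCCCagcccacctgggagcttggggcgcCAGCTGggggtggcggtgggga

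Capitals mark every match, on either strand, to 9 short motifs. The kept Kdm6b window held an ETS core (CCGGAA), a RUNX core (TGTGGT, read from the other strand) directly after it, a GC box (GGGCGG) and an E-box (CAGCTG), whereas the lost Kdm6b window held a single GC box. Neither Setd1b window nor the Ezh1 promoter held any of the 9 motifs. Among the windows of all 6548 Tet2-/- active enhancers the ETS core was in 1.92%, the RUNX core in 8.52%, the E-box in 9.09% and the GC box in 3.25%. The motifs that were searched for and not found in the windows shown were the sites of GATA factors, spelled AGATAA, in 2.86% of those windows, of AP-1, spelled TGACTCA, in 1.91%, of NRF1, spelled GCGCATGC, in 0.260%, the CCAAT box, spelled CCAAT, in 8.95%, and the CRE, spelled TGACGTCA, in none of them. In the 200 bases before all coding genes the shares were 12.3% for ETS, 10.5% for RUNX, 6.84% for GATA, 10.2% for the E-box, 3.20% for AP-1, 1.86% for CRE, 31.7% for the CCAAT box, 37.5% for the GC box and 2.90% for NRF1. A match is a description of letters and says nothing of binding.

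The promoters of these genes carried their marks in nearly every list. An H3K4me3 peak lay within 3 kb of an annotated start of all 10 genes in all 4 genotypes, and the same held for H3K4me1. Promoter H3K27ac was called in all 4 genotypes at 9 of the 10 genes, the exception being Ezh1. Over all protein-coding genes the promoter was marked in all 4 lists at 60.1% for H3K4me3, 53.4% for H3K4me1 and 40% for H3K27ac. Of the coding genes that had promoter H3K27ac in the 3 other genotypes, 5.69% lacked it in Ep300Δ/ΔTet2-/- cells, and Ezh1 was 1 of them.

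**Figure D1:**
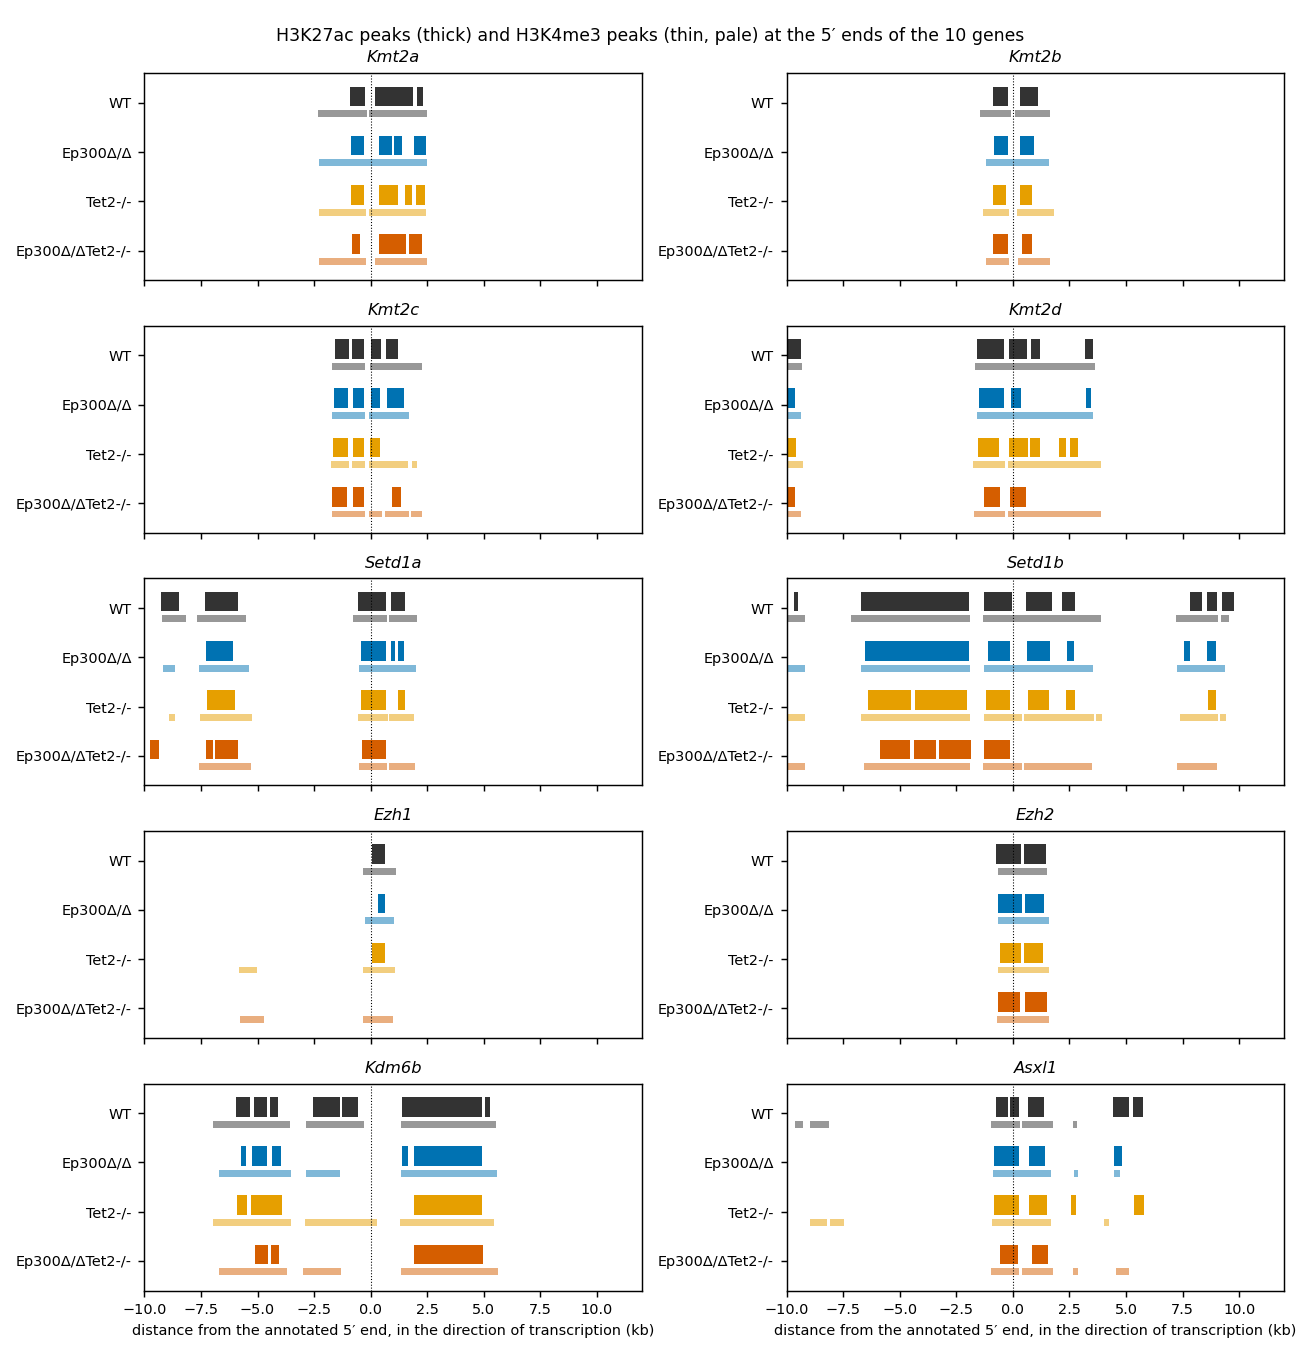
Peaks around the annotated 5′ end of each of the 10 genes, with distance in kb in the direction of transcription on the x axis and 1 row per genotype; thick bars are H3K27ac peaks and thin pale bars H3K4me3 peaks. H3K4me3 was called at all 10 genes in every genotype, while the Ezh1 promoter and the part of Setd1b downstream of its start have no H3K27ac bar in the Ep300Δ/ΔTet2-/- row.

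Peaks at the 10 genes were merged over the 4 genotypes into regions, 58 for H3K27ac, 135 for H3K4me1 and 47 for H3K4me3. Of the H3K27ac regions 29 (50%, 95% Clopper-Pearson interval 36.6 to 63.4) were called in all 4 lists, against 35.5% over the genome. For H3K4me1 it was 65 regions (48.1%, 39.5 to 56.9) against 34.4%, and for H3K4me3 31 regions (66.0%, 50.7 to 79.1) against 64.1%. These intervals cover counting error only, since neighbouring regions share a library and a locus. The H3K27ac regions that were not in all 4 lists included 11 called in WT cells alone (19.0%, 9.87 to 31.4; genome 21.1%), 7 called in the 3 other genotypes and not in Ep300Δ/ΔTet2-/- cells (12.1%, 4.99 to 23.3; genome 6.48%), 3 in Tet2-/- cells alone (5.17%; genome 9.48%) and 1 in Ep300Δ/ΔTet2-/- cells alone (1.72%; genome 3.34%). The genome's share lay inside the interval for each of these 4 patterns.

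**Figure D2:**
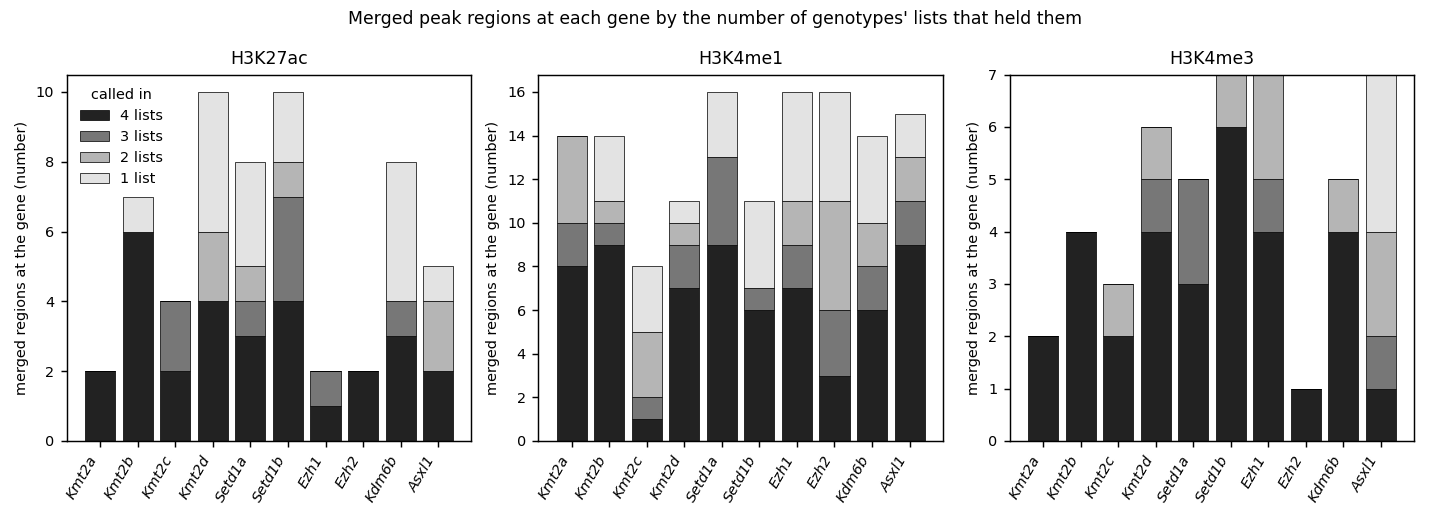
Number of merged regions at each of the 10 genes for the 3 marks, with shades for the number of genotypes' lists that held the region. Kmt2a and Ezh2 have 2 H3K27ac regions each and both are in all 4 lists, whereas Ezh2 has 16 H3K4me1 regions of which 3 are in all 4.

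By position, of 30 H3K27ac regions at a start of the gene itself 16 were in all 4 lists, and of 17 at a neighbouring gene's promoter 10 were. Together that was 55.3% of the regions at promoters (40.1 to 69.8), against 49.9% over the genome. Away from promoters 3 of 11 were in all 4 lists (27.3%, 6.02 to 61.0), against 14.4% over the genome. All 3 lay in the flanks and none among the 6 inside a gene, where the genome's share over coding genes was 12.8%. The regions kept in all 4 lists were also the stronger ones within their lists. In WT cells the kept regions had a median fold enrichment over H3 at the 87.9th percentile of the list and the others at the 31.0th, and in Ep300Δ/ΔTet2-/- cells, where 3 of the others were called, the medians were at the 73.5th and 14.9th percentile. Likewise 11 of the 13 peaks lost from WT to Ep300Δ/Δ cells and 11 of the 12 lost from Tet2-/- to Ep300Δ/ΔTet2-/- cells were in the weaker 50% of their list (84.6% and 91.7%), against 83.8% and 84.0% of all lost regions over the genome.

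With Tet2 present, a smaller share of H3K27ac regions was lost after Ep300 deletion at these genes than over the genome. From WT to Ep300Δ/Δ cells 13 of 55 regions at the 10 genes were lost (23.6%, 13.2 to 37.0) and 1 of 43 was gained (2.33%, 0.0589 to 12.3), whereas over all regions 39.7% were lost and 12.8% gained. A smaller share of cells with the mark and less of the mark per cell cannot be told apart in such lists. The losses lay at 6 genes, with 4 at Kdm6b, 3 at Kmt2d, 2 each at Setd1a and Setd1b and 1 each at Kmt2b and Asxl1, and none was at Kmt2a, Kmt2c, Ezh1 or Ezh2. The 13 lost peaks sat at a median of the 26.6th percentile of the WT list by fold. With peaks at -log10 q values of 5 and above alone, 18 of 47 regions (38.3%, 24.5 to 53.6) were lost at the 10 genes and 45.8% over the genome. With the WT list cut to the length of the shorter Ep300Δ/Δ list, 8 of 47 (17.0%, 7.65 to 30.8) were lost, against 26.7%, and within the gene bodies alone 5 of 26 (19.2%, 6.55 to 39.4), against 36.2% of regions in all coding gene bodies. In these 3 settings the genome's share of losses lay inside the interval. Gains were 2 of 31 (6.45%, 0.791 to 21.4; genome 4.46%) at the higher q and 4 of 43 (9.30%, 2.59 to 22.1; genome 18.8%) with lists of equal length. Both of these intervals include the genome's share.

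On the Tet2-null background 12 of 43 regions were lost (27.9%, 15.3 to 43.7) and 3 of 34 gained (8.82%, 1.86 to 23.7), against 37.8% and 15% over the genome. The losses lay at Kmt2d and Setd1b with 3 each, at Asxl1 with 2, and at Kmt2c, Setd1a, Ezh1 and Kdm6b with 1 each. This count depended on the window and on the list lengths. Within the gene bodies alone 11 of 21 regions (52.4%, 29.8 to 74.3) were lost, against 35.1% of regions in all coding gene bodies, and among regions whose nearest transcript start belonged to one of the 10 genes 12 of 23 (52.2%, 30.6 to 73.2) were. Both intervals include the genome's share. With the Tet2-/- list cut to the length of the shorter Ep300Δ/ΔTet2-/- list, 4 of 35 (11.4%, 3.20 to 26.7) were lost, against 23.5% over the genome, which is inside that interval.

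The comparison of Tet2-/- with WT cells, in which Ep300 was intact, gave changes of the same order. Of 55 WT regions 16 were lost (29.1%, 17.6 to 42.9) and of 42 Tet2-/- regions 3 were gained (7.14%, 1.5 to 19.5), against 35.6% and 20.3% over the genome. As both Ep300Δ/Δ and Tet2-/- cells were compared with the same WT list, a region called in WT cells alone counts as a loss in both. The 10 genes lie in regions rich in promoters, and promoters changed less than other sites over the whole lists. Among regions at promoters 9 of 43 were lost from WT to Ep300Δ/Δ cells (20.9%, 10.0 to 36.0; genome 26.5%), 9 of 36 from Tet2-/- to Ep300Δ/ΔTet2-/- cells (25.0%, 12.1 to 42.2; genome 26.8%) and 11 of 43 from WT to Tet2-/- cells (25.6%, 13.5 to 41.2; genome 24.1%), so that the genome's share lay inside the interval each time.

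**Figure D3:**
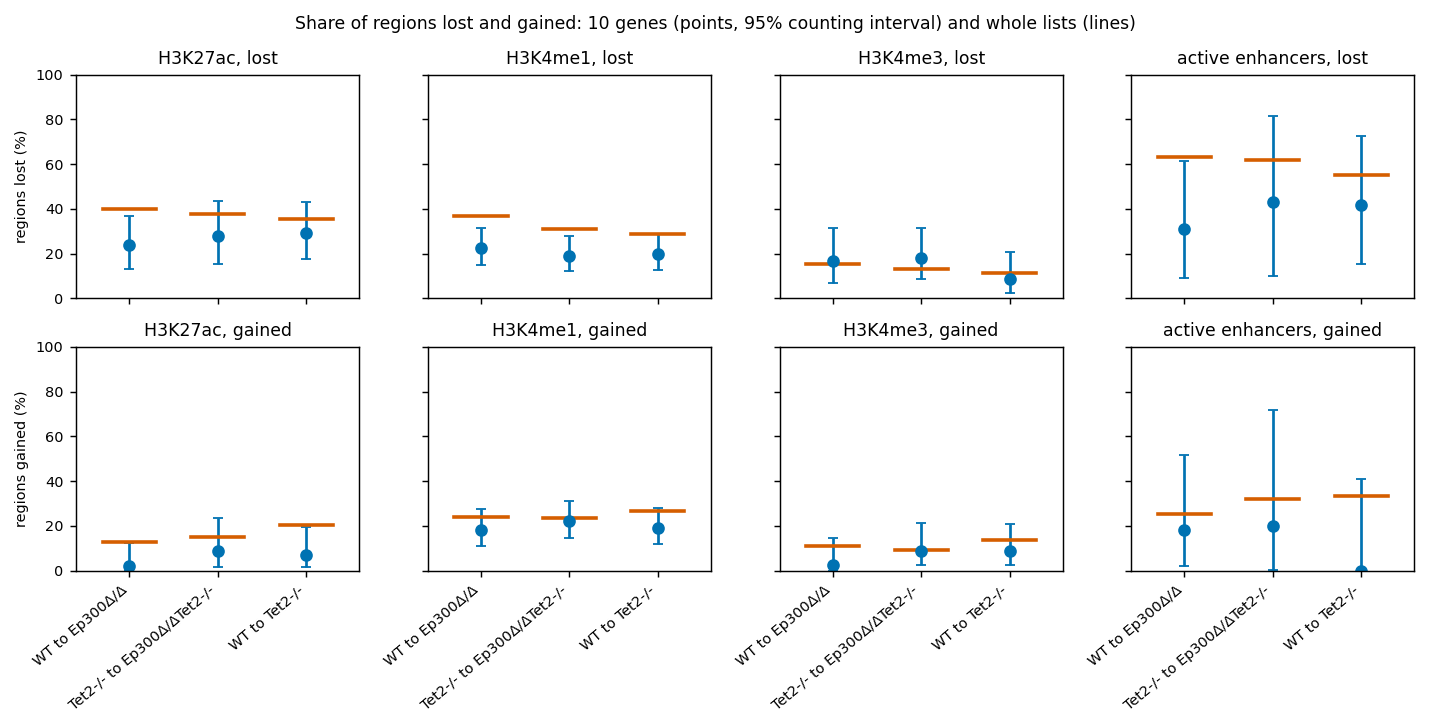
Share of regions lost (upper row) and gained (lower row), in percent, for each mark and for active enhancers in the 3 comparisons; points are the 10 genes with 95% Clopper-Pearson intervals and lines the whole lists. The point for H3K27ac lost from WT to Ep300Δ/Δ cells lies at 23.6% with the line at 39.7%, outside the interval, whereas the H3K4me3 lines for lost regions all lie inside the intervals.

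The length of DNA under H3K27ac peaks at the 10 genes was 51.0 kb in WT, 36.3 kb in Ep300Δ/Δ, 38.8 kb in Tet2-/- and 31.4 kb in Ep300Δ/ΔTet2-/- cells. The WT list covered more than any other. The Ep300Δ/Δ total, gained and widened peaks included, was 71.1% of the WT total at these genes and 61.3% over the whole list. Mean peak widths at the genes were 895 bp in WT and 725 bp in Ep300Δ/Δ cells. The Ep300Δ/ΔTet2-/- total was 80.8% of the Tet2-/- total at the genes and 79.4% over the list.

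H3K4me1 peaks covered 101.5, 99.0, 101.4 and 95.8 kb in WT, Ep300Δ/Δ, Tet2-/- and Ep300Δ/ΔTet2-/- cells, and H3K4me3 peaks 77.3, 68.8, 76.1 and 69.6 kb. The H3K4me1 total in Ep300Δ/Δ cells, newly called peaks included, was 97.5% of the WT total at the genes and 84.9% over the whole list. On the Tet2-null background the corresponding values were 94.5% and 83.3%. For H3K4me3 the Ep300Δ/Δ total was 89.0% of the WT total at the genes and 92.5% over the list. The values on the Tet2-null background were 91.5% and 94.8%. In H3K4me1, 23 of 103 regions were lost from WT to Ep300Δ/Δ cells (22.3%, 14.7 to 31.6; genome 36.7%) and 18 of 98 gained (18.4%, 11.3 to 27.5; genome 24.1%). On the Tet2-null background 20 of 105 were lost (19.0%, 12 to 27.9; genome 31.1%) and 24 of 109 gained (22.0%, 14.6 to 31.0; genome 23.4%). From WT to Tet2-/- cells 20 were lost (19.8%, 12.5 to 28.9; genome 28.6%) and 19 of 100 gained (19.0%, 11.8 to 28.1; genome 26.8%). With peaks within 500 bp counted as shared, 10 of 103 were lost from WT to Ep300Δ/Δ cells (9.71%, 4.75 to 17.1), against 25.1% over the genome. With peaks at -log10 q values of 5 and above alone it was 30 of 75 (40%, 28.9 to 52.0) against 51.0%, and at promoters 17 of 70 (24.3%, 14.8 to 36.0) against 29.8%, and in both the genome's share lay inside the interval. On the Tet2-null background the same settings gave 36 of 88 lost (40.9%, 30.5 to 51.9; genome 44.1%), with 9 of 61 gained (14.8%; genome 18.3%), and 14 of 68 lost at promoters (20.6%, 11.7 to 32.1; genome 25%), again with the genome's share of losses inside.

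In H3K4me3, 7 of 42 regions were lost from WT to Ep300Δ/Δ cells (16.7%, 6.97 to 31.4; genome 15.4%) and 1 of 36 gained (2.78%, 0.0703 to 14.5; genome 11.1%). On the Tet2-null background 9 of 50 were lost (18.0%, 8.58 to 31.4; genome 13.3%) and 4 of 45 gained (8.89%, 2.48 to 21.2; genome 9.45%). From WT to Tet2-/- cells 4 of 46 were lost and 4 of 46 gained (both 8.70%, 2.42 to 20.8; genome 11.1% lost and 13.6% gained). The 2 H3K4me3 regions called in both Tet2-null genotypes and in neither of the others were chr11:101231176-101232302, upstream of Ezh1, with folds of 4.30 and 5.36, and chr5:25472055-25472327, in Kmt2c, with folds of 8.44 and 6.96. They were 2 of 47 merged regions, against 721 of 30092 over the genome. Every lost or gained H3K4me3 peak at these genes was in the weaker 50% of its list by fold, as were between 99.6% and 99.8% of all lost H3K4me3 regions over the genome.

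Among the H3K4 methyltransferases, Kmt2a (chr9:44803355-44881296, minus strand), which encodes MLL1, kept its acetylation in all 4 genotypes. Its 2 H3K27ac regions both lay at the 5′ end, and the larger of them had a highest fold over H3 of 12.3 in WT, 5.48 in Ep300Δ/Δ, 10.2 in Tet2-/- and 9.30 in Ep300Δ/ΔTet2-/- cells, at the 77.5th, 44.9th, 71.6th and 65.6th percentile of the lists. A fold belongs to its own list, so folds of several genotypes are given as values and no change is read from them. The lists also differ in length, and the rank of a peak shifts with the number of weak peaks in its list, so a difference in rank is given as a value and not as a change of the mark. H3K4me3 covered 4.74, 4.79, 4.66 and 4.38 kb of the promoter in the same order, above the 96th percentile of marked coding genes in every list. In the body of the gene 8 regions of H3K4me1 lay outside promoters, 4 of them in all 4 lists, and none of these carried H3K27ac in any list.

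Kmt2b (chr7:30568858-30588726, minus strand), which encodes MLL2, is the gene with the most neighbours in its window, with 8 other coding genes starting there. Of its 7 H3K27ac regions 6 were in all 4 lists, 4 of them at promoters of neighbours such as Psenen and Lin37. At its own start the upstream region had folds of 12.3, 6.59, 6.01 and 3.71 in WT, Ep300Δ/Δ, Tet2-/- and Ep300Δ/ΔTet2-/- cells, and ranks at the 77.4th, 56.5th, 45.0th and 8.74th percentile. It was called in every genotype. H3K4me3 over the same promoter ranked at the 75.5th, 35.7th, 83.9th and 90.3rd percentile of marked coding genes.

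Kmt2c (chr5:25271798-25498783, minus strand), which encodes MLL3, is 227 kb long, the longest of the 10 genes, and all 4 of its H3K27ac regions lay at its start. The region just upstream of the start, chr5:25499063-25499589, was called in every genotype with folds of 26.0, 20.6, 31.2 and 85.2, at the 94.2nd, 94.3rd, 97.4th and 99.98th percentile. The Ep300Δ/ΔTet2-/- value was near the top of its list, and H3K4me3 at the same place had its highest fold there too, at the 99.97th percentile of marked coding genes. The next region, chr5:25498348-25498806, which spans the start itself, was called with folds of 12.4, 8.81 and 14.0 in WT, Ep300Δ/Δ and Tet2-/- cells and was not called in Ep300Δ/ΔTet2-/- cells. It was the strongest H3K27ac peak lost at the 10 genes on the Tet2-null background, at the 82.4th percentile of the Tet2-/- list. The kept region just upstream lies within 500 bp of this peak. At the same promoter chr5:25497445-25497823 was gained from Tet2-/- to Ep300Δ/ΔTet2-/- cells, at a fold of 6.01. H3K4me1 was sparse, with 4 peaks in each genotype over the whole window and 1 of 8 regions in all 4 lists.

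Kmt2d (chr15:98831669-98871204, minus strand), which encodes MLL4, had a merged H3K4me3 region of 5.64 kb over its promoter in all 4 lists, and several separate H3K27ac regions inside it. The regions at and before the start, chr15:98870558-98871371 and chr15:98871601-98872778, were in all 4 lists, and the latter ranked at the 91.3rd, 98.5th, 94.9th and 92.5th percentile. Downstream of the start, chr15:98869989-98870456 was called in WT and Tet2-/- cells and not after Ep300 deletion on either background, and the active enhancer at chr15:98867678-98868026 was called in WT and Ep300Δ/Δ cells and in neither Tet2-null genotype. Tet2-/- cells alone had 2 more weak regions there, below the 12th percentile.

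Setd1a (chr7:127776670-127800122, plus strand) kept its main promoter region, chr7:127776123-127777367, with ranks at the 99.7th, 98.7th, 88.9th and 93.6th percentile. The region downstream of it, chr7:127777552-127778188, had folds of 7.63, 5.57 and 2.47 and was absent from the Ep300Δ/ΔTet2-/- list, although H3K4me3 covered both in every genotype. At the 3′ end of the gene a region at the promoter of Hsd3b7, a bile acid synthesis enzyme, chr7:127800510-127801178, was called in both genotypes with Ep300 deleted and in neither with Ep300 intact, at folds of 3.44 and 4.18 and ranks of 11.9 and 14.9. This pattern was seen at 1 of 58 H3K27ac regions of the 10 genes and at 258 of 35252 over the genome.

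Setd1b (chr5:123142193-123168629, plus strand) had H3K27ac over less DNA in each mutant genotype than in WT cells. The peaks in its window covered 11.1 kb in WT, 8.80 kb in Ep300Δ/Δ, 8.07 kb in Tet2-/- and 5.39 kb in Ep300Δ/ΔTet2-/- cells. The number of peaks in the gene body was 5, 4, 3 and 0 in the same order. The region before the start, chr5:123140917-123142141, stayed in all 4 lists at the 96.1st, 92.5th, 83.5th and 79.3rd percentile. Those after the start, chr5:123142754-123143931 and chr5:123144371-123144956, were called in the 3 other genotypes and not in Ep300Δ/ΔTet2-/- cells, and so was the intronic enhancer chr5:123150762-123151207 whose sequence is shown above, with folds of 8.25, 4.28 and 2.64. Beside it chr5:123149776-123150566 was called in WT and Ep300Δ/Δ cells and chr5:123151444-123151958 in WT cells alone. A merged H3K4me1 region of 4.16 kb, chr5:123147885-123152043, covered the 3 intronic sites in all 4 lists at the 90.0th, 97.2nd, 85.2nd and 91.3rd percentile, and a merged H3K4me3 region of 5.24 kb, chr5:123140881-123146119, covered the start and the region after it. At the third intronic site, chr5:123151444-123151958, H3K4me3 was called in every genotype but Ep300Δ/ΔTet2-/-. Promoter H3K4me3 of Setd1b spanned 6.19, 5.90, 5.93 and 5.83 kb, between the 99.0th and 99.3rd percentile of marked coding genes.

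**Figure D4:**
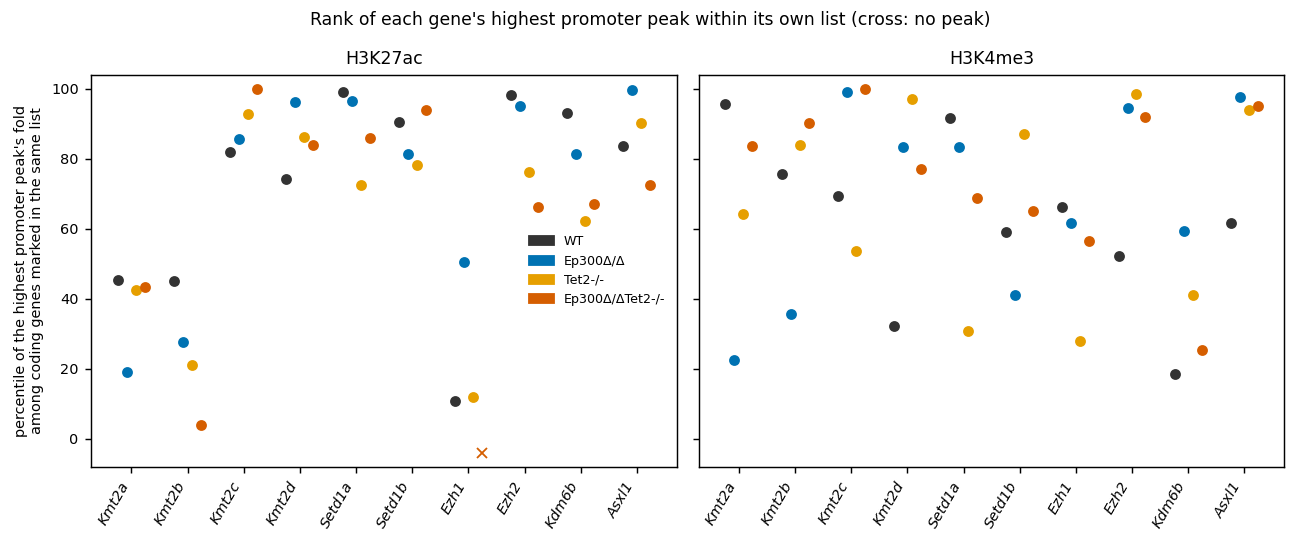
Percentile of the highest promoter peak's fold among the coding genes marked in the same list, for H3K27ac (left) and H3K4me3 (right) at the 10 genes; each dot is 1 library and the cross marks no peak. The H3K27ac dots of Ezh2 run from 98.3 in WT to 66.2 in Ep300Δ/ΔTet2-/- cells, Kmt2c is at 99.97 in the latter, and Ezh1 has the single cross.

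The paralogous Polycomb methyltransferases differed. Ezh2 (chr6:47530139-47595341, minus strand) had 2 H3K27ac regions, both at its start and both in all 4 lists, and no other H3K27ac peak in its window in any genotype. The region over the start, chr6:47594951-47596071, had folds of 53.9 in WT, 29.7 in Ep300Δ/Δ, 17.9 in Tet2-/- and 14.0 in Ep300Δ/ΔTet2-/- cells, at the 99.5th, 98.2nd, 88.9th and 81.7th percentile. The other region, chr6:47593824-47594852, ranked at the 90.3rd, 93.1st, 90.7th and 82.6th percentile. Over both regions and all 4 lists the ranks ran from the 81.7th to the 99.5th percentile. H3K4me3 was a single region of about 2.3 kb, with widths between 2161 and 2296 bp. H3K4me1 was scattered over the gene in short peaks, and 3 of 16 regions were in all 4 lists.

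Ezh1 (chr11:101191115-101226463, minus strand) had a promoter H3K27ac region, chr11:101225832-101226393, just inside the gene. The peak was 553 bp wide with a fold of 5.54 in WT, 278 bp with a fold of 10.1 in Ep300Δ/Δ and 562 bp with a fold of 5.18 in Tet2-/- cells, at the 37.3rd, 75.8th and 34.0th percentile of the lists, and none was called in Ep300Δ/ΔTet2-/- cells. H3K4me3 was present in all 4 genotypes with folds of 53.9, 42.5, 21.9 and 29.4 and widths of 1461, 1290, 1417 and 1329 bp. The other H3K27ac region of the window lay just beyond the 3′ end, chr11:101189987-101190714, and was an active enhancer in all 4 genotypes with folds of 3.74, 3.61, 5.64 and 4.86. The call was thus lost at the promoter and kept at the distal site.

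Kdm6b (chr11:69398508-69413675, minus strand) held 8 H3K27ac regions. Of these, 4 were called in WT cells alone, 3 in all 4 lists and 1 in every genotype but Ep300Δ/ΔTet2-/-. H3K27ac peaks in the window covered 10.3, 6.56, 7.05 and 5.99 kb in WT, Ep300Δ/Δ, Tet2-/- and Ep300Δ/ΔTet2-/- cells, and 9 of the 10 genes, all but Kmt2c, had the greatest covered length in WT cells (90%, 55.5 to 99.7), against 56.0% of the coding genes with an H3K27ac peak in such a window. The widest region, chr11:69408699-69412295, lay inside the gene, downstream of the annotated 5′ end, and ranked at the 97.9th, 92.4th, 84.1st and 83.1st percentile, with a widest peak of 3548, 3010, 2983 and 3055 bp. The regions just upstream of the annotated 5′ end, chr11:69414250-69414954 and chr11:69415052-69416227, were called in WT cells alone, with folds of 4.60 and 5.99. H3K4me3 peaks overlapped the latter in all 4 lists, and that peak was 2564 bp wide in WT, 1505 bp in Ep300Δ/Δ, 3178 bp in Tet2-/- and 1658 bp in Ep300Δ/ΔTet2-/- cells. It was narrower in both genotypes with Ep300 deleted than in both with Ep300 intact, and those narrower peaks did not reach the region nearer to the 5′ end. Farther upstream, chr11:69417615-69418960 was an active enhancer in all 4 genotypes and chr11:69418996-69419641, next to it, had folds of 6.85, 2.09 and 3.61 and was not called in Ep300Δ/ΔTet2-/- cells.

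Asxl1 (chr2:153345829-153404007, plus strand) kept the 2 regions at its start in all 4 lists, with the first of them, chr2:153345005-153346110, at the 94.8th, 99.8th, 96.4th and 86.3rd percentile. Farther in, chr2:153350235-153350949 was called in WT and Ep300Δ/Δ cells and in neither Tet2-null genotype. The highest promoter H3K4me1 peak of Asxl1 had folds of 11.1, 12.6, 17.3 and 11.5, above the 97th percentile of marked coding genes in every list. H3K4me3 of Asxl1 was 1 merged region of 2.77 kb over the start in all 4 lists with 6 smaller regions around it, none of which was in all 4.

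Active enhancers in the 10 windows numbered 13 in WT, 11 in Ep300Δ/Δ, 7 in Tet2-/- and 6 in Ep300Δ/ΔTet2-/- cells, against 9505, 5093, 6548 and 3720 over the genome. Kdm6b and Setd1b held most of them, with 5 each in WT cells, and Kmt2a, Kmt2b, Kmt2c and Ezh2 had none in any genotype. From WT to Ep300Δ/Δ cells 4 of 13 were lost (30.8%, 9.09 to 61.4) and 2 of 11 gained (18.2%, 2.28 to 51.8), against 63.1% and 25.3% over the genome. On the Tet2-null background 3 of 7 were lost (42.9%, 9.90 to 81.6) and 1 of 5 gained (20%, 0.505 to 71.6), against 61.7% and 31.8%. From WT to Tet2-/- cells 5 of 12 were lost (41.7%, 15.2 to 72.3) and 0 of 7 gained (upper limit 41.0%), against 55.2% and 33.5%. All 3 gained enhancer peaks lay in regions that had H3K27ac in all 4 genotypes, and they counted as gained because those peaks alone did not reach within 3 kb of a start. Outside promoters no H3K27ac region was gained in any of the 3 comparisons (0 of 8, 0 of 4 and 0 of 7, in the order above). Over the genome 21.7%, 30.6% and 34.9% of such regions were gained, and these counts are too small to tell 0 from those shares. The intervals for lost enhancers on the Tet2-null background and from WT to Tet2-/- cells include the genome's share. The share lost from WT to Ep300Δ/Δ cells depended on the setting. For peaks at -log10 q values of 5 and above it was 7 of 10 (70%, 34.8 to 93.3), and the genome's share was not computed under that setting. With 50 kb on either side of the genes it was 9 of 19 (47.4%, 24.4 to 71.1), where the interval includes the genome's 63.1%.

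Outside all promoters lay 11 H3K27ac regions of the merged set. All 11 of them carried H3K4me1 in all 4 genotypes (100%, 71.5 to 100), against 67.6% of such regions over the genome. H3K27ac was called in all 4 genotypes at 3, in WT cells alone at 3, in every genotype but Ep300Δ/ΔTet2-/- at 2, in WT and Ep300Δ/Δ cells at 2 and in WT and Tet2-/- cells at 1. H3K4me3 was called in all 4 genotypes at 7 (63.6%, 30.8 to 89.1; genome 15.9%), and its call differed between the genotypes at 2, at Kdm6b and at Setd1b (18.2%, 2.28 to 51.8; genome 15%).

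**Figure D5:**
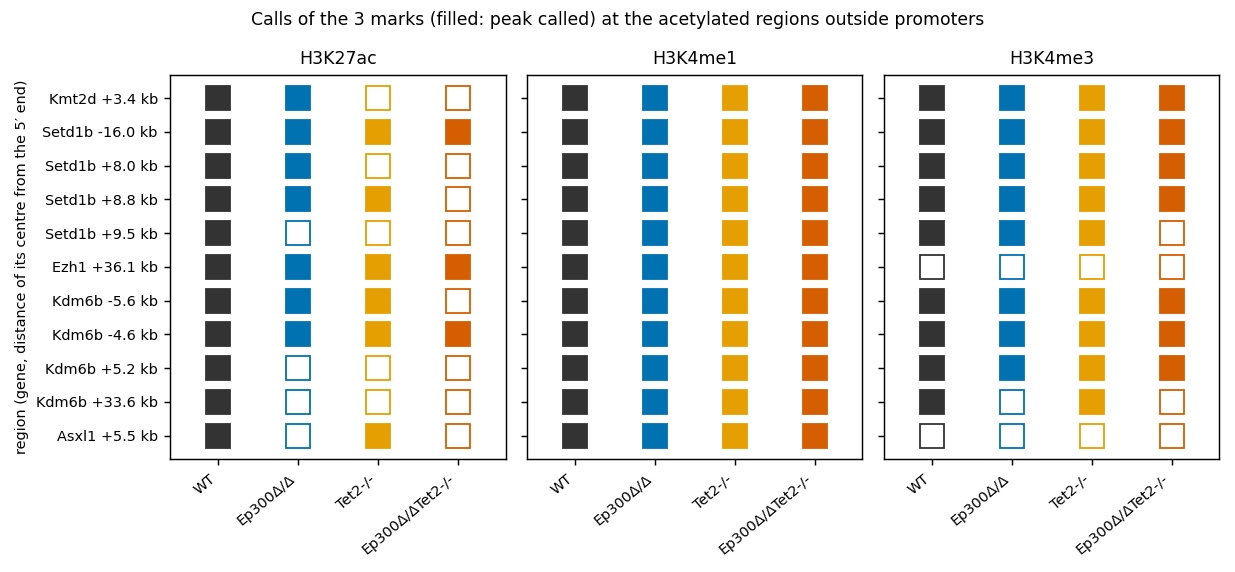
Calls of H3K27ac, H3K4me1 and H3K4me3 in the 4 genotypes (columns) at the 11 acetylated regions outside promoters (rows, with the distance of the region's centre from the gene's 5′ end in kb); a filled square is a called peak. All H3K4me1 squares are filled, while 3 rows are filled in all 4 columns for H3K27ac.

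The promoters of 34 other genes of the same machinery were looked at as well. They included the shared COMPASS subunits (Wdr5, Rbbp5, Ash2l and Dpy30), Men1, the Polycomb partners Eed and Suz12, the other demethylases and Bap1 with its partners. H3K4me3 was called in all 4 genotypes at 33 of them, H3K27ac at 30 and H3K4me1 at 25, against 10, 9 and 10 of the 10 genes. Over all protein-coding genes the shares were 60.1%, 40% and 53.4%. In H3K4me3 and H3K27ac the genes with a differing call were Kdm5b, an H3K4 demethylase, and Phf1, a Polycomb-associated protein, both of which lacked promoter H3K27ac in Ep300Δ/ΔTet2-/- cells alone, and Asxl3, which had H3K4me3 in Ep300Δ/Δ and Ep300Δ/ΔTet2-/- cells alone and H3K27ac in none. Over all coding genes with promoter H3K27ac in the 3 other genotypes, 5.69% lacked it in Ep300Δ/ΔTet2-/- cells. Kdm1b, another H3K4 demethylase, had H3K27ac in no list. The promoter H3K4me1 call differed at 8 of the 34, among them Suz12, which lacked it in WT cells alone, and Kdm6a, an H3K27 demethylase, had none in any list. The share of differing H3K4me1 calls over all coding genes was not computed.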

How the data were processed

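Peak lists of 12 samples (H3K27ac, H3K4me1 and H3K4me3 in 4 genotypes) were read, and the 8 other samples of the 20, H3K27me3 and total H3, were not analysed here. Chromatin had come from Lin- cells of over 80% purity. Per the labels, the authors used cutadapt 1.15 for trimming, BWA 0.7.13 for alignment (build mm10) and Picard for duplicate removal, and called narrow peaks with MACS2 2.1.1.20160309 against H3, keeping peaks shared by pseudo-replicates of 1 library. The labels give single-end and the methods paired-end reads. The antibodies' catalogue numbers identified the marks of titles that read H3Kme1 and H3Kme3. The deposited columns used were the fold (ratio) of the library over H3 at the summit, the −log10 q value of the peak and the summit's distance from the peak start. The deposited score, a rounded multiple of the −log10 p value, was not used.

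Peaks were merged where they overlapped or touched (Python 3.11.15), as bedtools 2.31.1 does, which was tested on simulated lists. A region was lost if only the first list had a peak in it and gained if only the second had. Promoters were 3 kb on either side of any GENCODE vM21 start, so a region at the start of a minor transcript deep in a gene counts as a promoter. Percentiles are within 1 list, and shares have 95% Clopper-Pearson intervals (scipy 1.17.1). No test was made, since each genotype and mark was 1 library. All 10 genes are named, with neighbours whose promoter lies in a described region, and the other genes of the pathway whose promoter H3K27ac or H3K4me3 call varied. Sequences follow the enhancers lost or kept on the Tet2-null background, by highest fold, and windows overlapping a UTR were left out, which removed the Ezh1 enhancer. One lost enhancer and 1 gene of mature cells are not reported here. The members, the lists and the motifs were chosen with earlier results of these data known.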

Additional observations from a re-analysis of the deposited data

Results flagged for a closer look

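At 4 H3K4me1 regions the call moved in opposite directions after Ep300 deletion on the 2 backgrounds, and the difference was not tested, with 1 library each. They were 2.96% of the 135 regions (0.813 to 7.41), against 4.18% over the genome, which is inside that interval. Kmt2a had 2 of them, chr9:44873424-44873801 in the gene, gained from WT and lost on the Tet2-null background at folds of 6.04 and 6.48, and chr9:44800221-44800509 near Tmem25 and Ttc36, lost from WT and gained on the Tet2-null background at folds of 3.07 and 3.81. Kmt2c had 1, chr5:25493191-25493465, which was gained from WT at a fold of 5.61 and lost on the Tet2-null background at a fold of 5.13. Ezh2 had 1, chr6:47587498-47587804, which was lost from WT at a fold of 4.67 and gained on the Tet2-null background at a fold of 3.12. No H3K27ac or H3K4me3 region at the 10 genes did so (upper limits 6.16% and 7.55%), against 2.29% and 1.58% over the genome, both below those limits.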

How the results depend on the processing

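Of 215 values recomputed under other settings, 168 stayed inside the interval of the reported share (or within 1.5 times of a count of genes) and 47 moved. Each value is a share of called regions or a count of genes and has no sign. Requiring overlap of 50% of the shorter peak, windows of 50 kb and promoters of 1000 or 1500 bp moved none. The comparisons are named by their second genotype, Ep300Δ/Δ and Tet2-/- against WT and the double mutant against Tet2-/-.

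Counting as changed the peaks in the upper 50% of their list by fold, which can leave fewer by construction, gave H3K27ac losses of 3.64% (Ep300Δ/Δ), 2.33% (double mutant) and 3.64% (Tet2-/-) with gains of 0% each, H3K4me1 losses of 7.77%, 3.81% and 4.95% with gains of 9.18%, 4.59% and 7%, and H3K4me3 losses and gains of 0% each. Active enhancers then had 0% lost and 0% gained in the double mutant and 8.33% lost in Tet2-/-. Peaks at -log10 q values of 5 and above gave 38.3% of H3K27ac regions lost (Ep300Δ/Δ; genome 45.8%). They gave 40% and 40.9% of H3K4me1 regions lost (Ep300Δ/Δ and double mutant; genome 51.0% and 44.1% under this setting) and 29.9% gained (Tet2-/-; genome 37.3%). They also gave 0% of H3K4me3 regions gained (Ep300Δ/Δ; genome 6.69%), 70% of enhancers lost (Ep300Δ/Δ) and 35.6% of H3K4me1 regions in all 4 lists. Counting peaks within 500 bp as shared gave 12.7% of H3K27ac regions lost (Tet2-/-; 5.27 to 24.5, genome 26.3%). Here the genome's share lay outside the interval, and in the main setting inside it. H3K4me1 losses were 9.71%, 11.4% and 10.9% (genome 25.1%, 21.3% and 18.7%), and H3K4me1 gains were 9.18% (Ep300Δ/Δ) and 12.8% (double mutant). Lists of equal length gave 11.4% of H3K27ac regions (genome 23.5%) and 0% of enhancers lost in the double mutant. Gene bodies alone gave 0% of H3K27ac regions and of enhancers gained (Ep300Δ/Δ), and 52.4% of H3K27ac regions and 100% of 2 enhancers lost (double mutant). Regions with their nearest start at the 10 genes gave 0% of H3K27ac regions and of enhancers gained and 0% of H3K4me3 regions lost (Ep300Δ/Δ), and 52.2% of H3K27ac regions lost and 0% of enhancers gained (double mutant). Promoters of 5000 bp gave 0% of enhancers gained in both Ep300-deleted genotypes. Which of lost and gained H3K4me1 regions were more numerous also changed, from 23 lost and 18 gained to 16 and 25 with lists of equal length (Ep300Δ/Δ), and from 20 lost and 24 gained to 36 and 9 at the higher q (double mutant). Over the genome the shares lost and gained went from 36.7% and 24.1% to 31.7% and 30.8% in the former. In the latter they went from 31.1% and 23.4% to 44.1% and 18.3%. For Tet2-/- the counts went from 20 lost and 19 gained to 17 and 23 with lists of equal length and to 10 and 26 at the higher q. The genome's shares there went from 28.6% and 26.8% to 25.7% and 30.3% and to 23.6% and 37.3%. The share of H3K27ac regions lost in the double mutant was below the genome's (27.9% and 37.8%) and in gene bodies above it (52.4% and 35.1%). The cause of these shifts was not tested. Within gene bodies no enhancer was called in the double mutant, so its share of gained enhancers has no value there.

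No paired analysis was possible because each genotype and mark was 1 library. Read depth is not in the lists, and it limits what each library shows.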

Other observations

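Of the acetylated regions in the windows, 17 lay at promoters of neighbouring genes. The region shared by Cyb5d1, Naa38 and Tmem88 beyond the 3′ end of Kdm6b, chr11:69394520-69397111, had ranks at the 99.4th, 98.9th, 97.8th and 97.6th percentile by fold in WT, Ep300Δ/Δ, Tet2-/- and Ep300Δ/ΔTet2-/- cells. The region at the promoter of Rhebl1 next to Kmt2d, chr15:98880566-98881384, was also in all 4 lists, with ranks at the 87.9th, 83.9th, 50.9th and 25.2nd percentile. The 4.86-kb region between Rhof and Setd1b, chr5:123135470-123140332, was 1 peak in WT, 1 in Ep300Δ/Δ, 2 in Tet2-/- and 3 in Ep300Δ/ΔTet2-/- cells.

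By CpG number in the 200 bases before the 5′ end, the 10 genes ran from Kdm6b with 1 (14.8th percentile of coding genes) through Asxl1 with 8 and Ezh1 with 13 to Kmt2c with 39 (99.8th percentile). The other 6 genes were between the 72.4th and 92.9th percentile.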
